A study of Homo sapiens with 12 samples.

Results

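The ATP-binding cassette (ABC) transporters are membrane pumps and related proteins that share a conserved ATP-binding domain. They were examined in a bone-seeking subline of MDA-MB-231, a human breast cancer line of basal type. Members were all genes whose symbol is ABC, a letter from A to G and a number, read from probe sets assigned to that gene alone, with pseudogenes left out. The array held 42 such genes among 18417 genes with a single symbol. By subfamily these were 12 ABCA, 8 ABCB, 10 ABCC, 3 ABCD, 1 ABCE, 3 ABCF and 5 ABCG genes. They came from 46 of 33297 probe sets, and the brightest probe set was taken for ABCF1 and ABCB8, which have 3 each.

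RNA was profiled on Affymetrix human gene arrays in 4 groups. The shHMGA2 cells (3 arrays) carried a short hairpin RNA against HMGA2, a chromatin protein of embryonic and tumour cells, in the lentiviral vector pLKO.1 and were kept in puromycin. The Tet1 cells (2 arrays) and HOXA9 cells (2 arrays) each carried 2 lentiviral constructs. One held Flag-tagged Tet1, a 5-methylcytosine oxidase, or HOXA9, a homeobox factor, behind a tetracycline-inducible promoter (pLVX-TRE3G). The other held the regulator Tet-On 3G (pCMV-Tet3G). Both lines were selected with puromycin and G418 and grown in tetracycline-approved serum, and their labels call the factors induced. The control cells (3 arrays) have no construct named in their labels. The labels call the replicates biological and do not say whether they were separate cultures, so the p-values may measure technical spread. Sample titles name the subline 1833 for every group, but the Tet1 and HOXA9 source names say 1834.

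The arrays formed 2 sets, control with shHMGA2 and Tet1 with HOXA9. Correlations over all probe sets were 0.9865 to 0.9977 and 0.993 to 0.9972 within the sets, against 0.9455 to 0.9657 between them. Array set, serum, selection, vector and parent subline cannot be told apart from the construct where Tet1 or HOXA9 cells are compared with control. The probe set shared by HMGA2 and ELAC2 lay at 8.47 to 9.02 in shHMGA2 arrays, below the 9.48 to 9.65 of control. The TET1 probe set lay at 6.98 to 7.16 in arrays labelled Tet1, below the 7.2 to 7.4 of arrays labelled HOXA9. It lay at 8.72 to 9.29 in shHMGA2 arrays, the highest of the 4 groups, and at 6.45 to 6.66 in control. It therefore does not bear out the Tet1 label, although whether it reads the introduced copy is not known, and HOXA9 itself was not analysed here. Of 9 measured MDA-MB-231 markers, 9 were brighter than the 30th percentile of the probe sets in every group. Passing this mark does not identify the line, since 14945 genes lay above it and 3472 below (mean over 10 arrays). In shHMGA2, Tet1, HOXA9 and control, 6, 8, 8 and 6 of 10 luminal and epithelial genes passed. So did 7, 8, 7 and 5 of 9 genes of a kidney cell list, and 1, 2, 2 and 1 of 3 leukocyte genes. Of 3 genes of the 9p21 stretch, which MDA-MB-231 is known to have lost, 3, 2, 2 and 3 passed.

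ABC proteins use ATP to move lipids, sterols, drugs, peptides or metabolites across membranes. The ABCA and ABCG subfamilies include the main exporters of cholesterol and phospholipid, and ABCB1, ABCC1 and ABCG2 are known as multidrug efflux pumps in tumour cells, ABCG2 under the name breast cancer resistance protein. ABCD proteins act in peroxisomes and lysosomes, some ABCB proteins in mitochondria. ABCE1 and the ABCF proteins have no membrane domain and work on ribosomes.

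The sequences just upstream of the transcription start are shown for 5 members whose calls held under every scaling in both comparisons of the inducible lines with control. They let the 3 genes that rose in those lines be set beside the 2 that fell. The letters are from the RefSeq promoter table of GRCh38.p14, 250 bases ending at the base before the start, written 5′ to 3′ on the gene's strand. Capitals mark CG dinucleotides, the sites of DNA methylation that TET enzymes act on. The windows lie at chr4:88231627-88231876 (ABCG2, minus strand), chr7:48171208-48171457 (ABCA13, plus strand), chr2:43838721-43838970 (ABCG8, plus strand), chr11:119148802-119149051 (ABCG4, plus strand) and chr1:94418139-94418388 (ABCD3, plus strand).
ABCG2: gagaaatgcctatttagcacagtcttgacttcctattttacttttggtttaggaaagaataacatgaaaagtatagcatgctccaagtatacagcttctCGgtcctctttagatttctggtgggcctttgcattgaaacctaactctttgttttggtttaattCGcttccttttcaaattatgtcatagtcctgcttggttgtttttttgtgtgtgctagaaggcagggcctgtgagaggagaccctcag
ABCA13: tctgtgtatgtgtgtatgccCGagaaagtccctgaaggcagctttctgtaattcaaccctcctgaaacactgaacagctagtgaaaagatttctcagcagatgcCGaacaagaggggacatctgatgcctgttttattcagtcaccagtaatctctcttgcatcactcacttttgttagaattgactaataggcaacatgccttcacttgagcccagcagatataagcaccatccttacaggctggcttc
ABCG8: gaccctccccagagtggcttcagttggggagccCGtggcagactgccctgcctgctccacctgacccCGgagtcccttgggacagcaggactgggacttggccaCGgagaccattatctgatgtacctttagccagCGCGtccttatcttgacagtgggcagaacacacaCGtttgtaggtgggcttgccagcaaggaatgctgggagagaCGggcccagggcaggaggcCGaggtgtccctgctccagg
ABCG4: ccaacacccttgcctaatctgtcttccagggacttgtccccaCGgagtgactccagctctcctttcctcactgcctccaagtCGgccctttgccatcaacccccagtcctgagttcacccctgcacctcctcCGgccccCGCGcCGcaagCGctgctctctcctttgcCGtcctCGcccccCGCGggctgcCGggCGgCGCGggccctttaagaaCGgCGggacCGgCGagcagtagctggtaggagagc
ABCD3: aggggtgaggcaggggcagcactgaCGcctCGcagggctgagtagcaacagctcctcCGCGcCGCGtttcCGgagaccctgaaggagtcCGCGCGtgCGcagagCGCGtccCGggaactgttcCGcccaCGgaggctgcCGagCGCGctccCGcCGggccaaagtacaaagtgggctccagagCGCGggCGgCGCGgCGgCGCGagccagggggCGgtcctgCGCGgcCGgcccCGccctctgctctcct

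The ABCG2 and ABCA13 windows hold 2 CG dinucleotides each, ABCG8 holds 8, ABCG4 19 and ABCD3 34. Of all members with a window and a call that held under every scaling in both lines, those that rose had 1 (ABCA9), 2 (ABCA13), 8 (ABCG8) and 19 (ABCG4). Those that fell had 24 (ABCE1), 26 (ABCF2), 29 (ABCB10), 31 (ABCF1) and 34 (ABCD3), and ABCG2 stood apart from them with 2. This is a description of 10 genes chosen by their calls, with no test. In control the probe sets of those that rose were dimmer (means 5.18 to 6.95). Those of the CG-rich genes that fell were brighter (9.18 to 11.88). Over all genes below the 30th percentile, 70.0% were called higher and 6.6% lower in Tet1 cells as deposited. Above it these shares were 50.2% and 27.0%. After quantile normalization they were 30.7% and 21.1% below it, and 33.0% and 36.1% above it. CG count and brightness cannot be told apart in so few genes. Over the 34 members in the table the median was 15.5 CG dinucleotides (range 0 to 42), against 11 over all 27305 promoters. No methylation was measured in these samples.

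Short motifs were searched in the same windows on both strands. The GC box, GGGCGG, occurred in 18 of the 34 members (52.9%, against 42.3% of all promoters), among them ABCD3 and ABCG4. TTTAT, the core preferred by posterior Hox proteins such as HOXA9, occurred in 10 members (29.4%, against 33.7% of all), and of the 5 shown only in ABCA13. GCGTG, the core bound by the aryl hydrocarbon receptor, was in 12 members (35.3%, against 31.9%), ABCD3 included. TGACNNNGC, the core of the antioxidant element, was in 6 members (17.6%, against 11%), and TATAAA in 5 (14.7%, against 11.1%). ABCG2 and ABCG8 held none of these motifs in the window. Only 1 window per gene was read. That of ABCG2 lies before the outer end of its span (chr4:88090264-88231626), and starts further inside the gene were not examined. Its motif and CG counts hold for that window only. These matches describe letters and do not show binding.

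The levels of the members were read on the deposited log2 scale, on which a probe set's own brightness also enters, so levels are compared between samples and not between genes. The table has no detection calls, and the 30th percentile of all probe sets (6.26) served as a mark of dimness. Of the 42 members, 25 had all 4 group means above it, 13 had none above it, and 4 had some. The 13 dim members were ABCA4, ABCA6, ABCA8, ABCA9, ABCA10, ABCA12, ABCB1, ABCB4, ABCB5, ABCB11, ABCC12, ABCD2 and ABCG5. For these, a fold change can understate a change in RNA, and expression above background is not known.

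**Figure D1:**
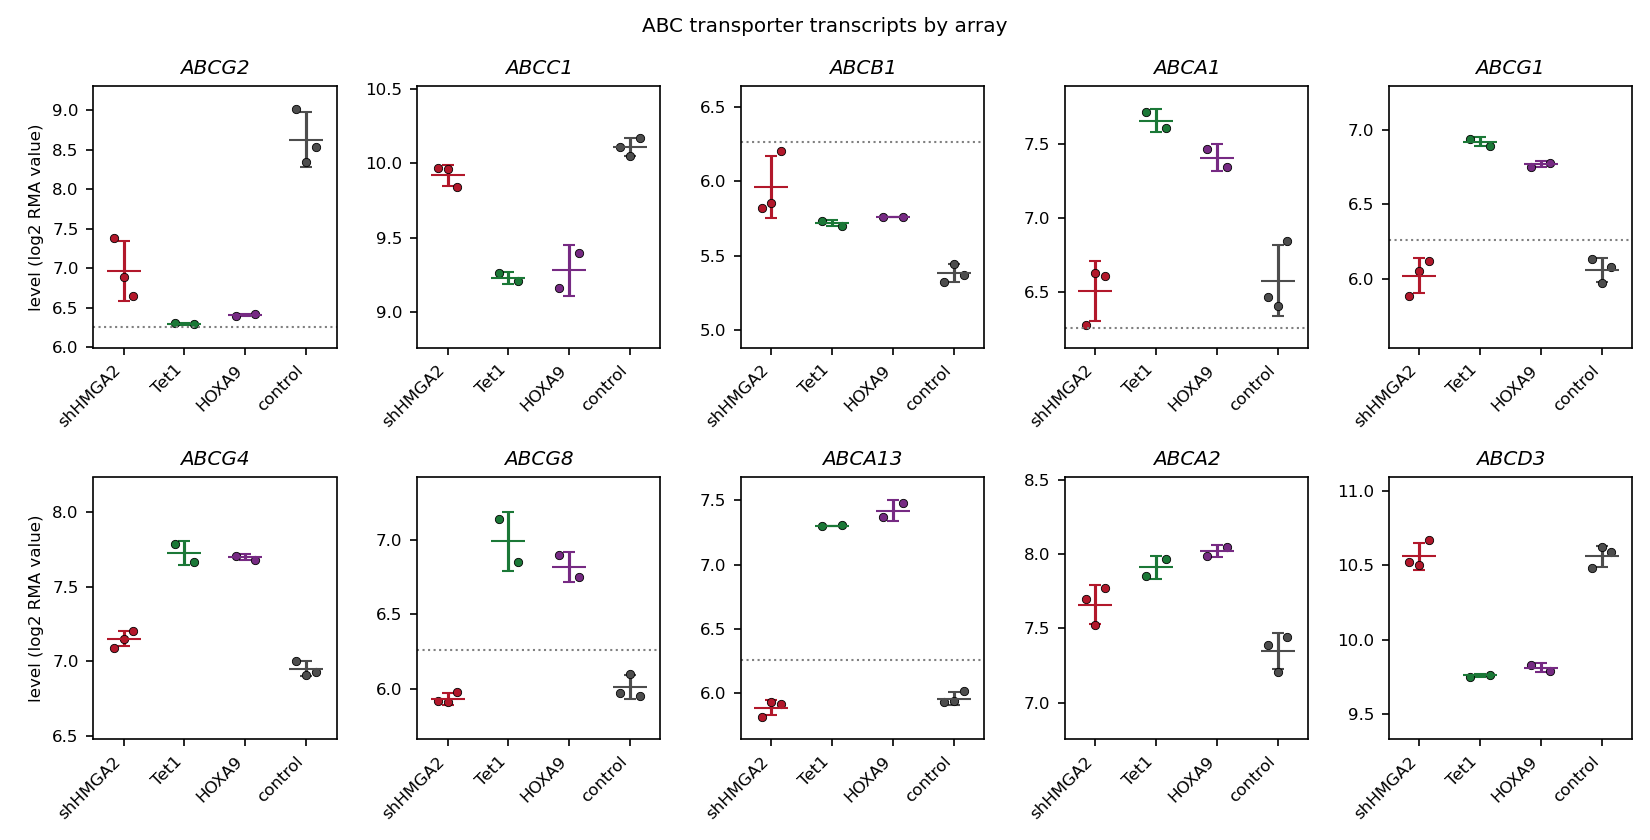
Level (log2 RMA value, vertical axes, with a scale of its own per gene) of the 10 named ABC transporter genes by group. Points are arrays, horizontal bars are means, whiskers are SD (n = 3, 2, 2 and 3 from left to right), and the dotted line is the 30th percentile of all probe sets (6.26). ABCG2 lies at 6.65 to 7.38 in shHMGA2 arrays and at 6.29 to 6.42 in Tet1 and HOXA9 arrays, all below the 8.34 to 9.02 of control.

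The shHMGA2 cells were set against control to see what differs with the hairpin against HMGA2. Control has no construct named, so vector and puromycin cannot be told apart from the hairpin in this comparison. ABCG2 fell, and it was the single member called that changed by at least 1.5-fold. Of the 42 members 9 were called, 6 higher and 3 lower, at a limma adjusted p under 0.05 over all genes. Over all 18417 genes 26.2% were called, 13.6% higher and 12.6% lower, so the members' share, 9 of 42, lies near the background. Their median log2 fold change was -0.03, the same as the median of all genes. At 1.5-fold or more, 4.87% of all genes were called. The 2 groups did not overlap for 17 members and for 40.5% of all genes.

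ABCG2, a drug and urate exporter, was at 7.38, 6.89 and 6.65 in the shHMGA2 arrays, against 9.02, 8.34 and 8.53 in the control arrays (log2 level). The groups did not overlap: every shHMGA2 array was lower than every control array. The means were 6.97 ± 0.38 in shHMGA2 and 8.63 ± 0.35 in control (SD, n = 3 each), a log2 fold change of -1.66 (SE 0.18, 95% confidence interval -2.05 to -1.26, 3.15-fold lower, limma adjusted p = 5.2e-05). Leaving out each array in turn gave -1.86 to -1.46, called each time. The fit pools the spread over all 4 groups, and the SD of ABCG2 was 0.01 in Tet1 and in HOXA9 arrays. Its SE, interval and adjusted p can therefore be too small for this comparison.

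The shHMGA2 arrays also differed in markers of other cells, and their part in the ABCG2 result was not tested. The summed linear value of 9 genes of a kidney cell list, traits of the embryonic kidney line HEK293, was 2637, 2829 and 3427 in shHMGA2 replicates 1, 2 and 3, against 996 to 1083 in control, and 5 of the 9 genes were called higher. HOXD10 rose most (log2 fold change 4.47), followed by NEFM (1.65), NEFL (1.17), CITED1 (0.54) and WT1 (0.25). PAX2 (-0.09), CDH6 (-0.12), TFAP2B (-0.11) and LHX1 (0.10) were not called. The 3 genes of the 9p21 stretch, which MDA-MB-231 is known to have lost, summed to 1234, 1367 and 1743 in the same replicates, against 370 to 430 in control, with 3 of 3 called higher. Replicate 3, with the highest sum of both lists, also had the lowest ABCG2, which is an order of only 3 arrays. Replicate 1 had the highest ABCG2 of its group in shHMGA2 (7.38) and in control (9.02). The same was so for CYP1B1 (9.82 and 10.22) and NQO1 (12.15 and 12.48), 2 genes described below. What either order reflects was not tested. MDA-MB-231 markers summed to 39074 to 44741 in shHMGA2, against 49630 to 49935 in control, with 6 of 9 called lower. The luminal and epithelial list summed to 6500 to 8273 in shHMGA2, against 8928 to 9415 in control (3 of 10 called lower), and leukocyte genes to 187 to 200, against 207 to 224 (1 of 3 called lower). In such bulk arrays fewer cells of a type and less RNA per cell cannot be told apart.

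The other drug pumps changed less. ABCB1, or P-glycoprotein, was at 5.82, 5.85 and 6.2 in shHMGA2 arrays, against 5.32, 5.44 and 5.37 in control. It rose by a log2 fold change of 0.58 (SE 0.09, adjusted p = 0.00056), the largest rise among the members, but both group means lay below the 30th percentile. Replicate 3 was again the outermost array. ABCC1, a pump of glutathione conjugates, was at 9.97, 9.96 and 9.84 in shHMGA2 arrays, against 10.11, 10.05 and 10.17 in control. Its groups did not overlap, yet the log2 difference of -0.19 did not pass the test (95% confidence interval -0.35 to -0.03, adjusted p = 0.072). ABCC3, which exports bile salts and glucuronides, fell (log2 fold change -0.38, adjusted p = 0.022), but was not called without control replicate 1 or without shHMGA2 replicate 1. ABCC2, ABCC4, ABCC5, ABCC10 and ABCC11 were not called.

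The remaining calls were each 1.32-fold or smaller and are named for completeness after their values were seen. ABCA3, the lipid transporter of lung surfactant, rose (log2 fold change 0.40, adjusted p = 0.004). ABCB10, a mitochondrial transporter needed for haem synthesis, rose as well (0.38, adjusted p = 0.0043). ABCA2, a sterol transporter of the endosome, and ABCC8, the sulphonylurea receptor of the potassium channel, rose by 0.31 and 0.26 (adjusted p = 0.013 and 0.027). ABCG4, a sterol exporter related to ABCG1, rose by 0.20 (adjusted p = 0.023), and ABCF3, a ribosome-associated ATPase, fell by 0.21 on the log2 scale (adjusted p = 0.026). Several of these calls depended on single arrays: without shHMGA2 replicate 3 or without control replicate 2 only 5 members were called, and ABCA2, ABCC8, ABCF3 and ABCG4 were lost both times. ABCA3 and ABCB10 were called with each array left out in turn. The count of 9, with 6 higher and 3 lower, was the same after one quantile normalization and with equal array medians (27.0% and 26.4% of all genes).

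ABCA1, the exporter that loads cholesterol onto apolipoprotein, was at 6.28, 6.63 and 6.61 in shHMGA2 arrays, against 6.47, 6.41 and 6.85 in control. The groups overlapped, and the log2 difference was -0.07 (95% confidence interval -0.33 to 0.19, adjusted p = 0.73). ABCD3, a peroxisomal fatty acid importer, lay at 10.5 to 10.67 in shHMGA2 and 10.48 to 10.62 in control, with an interval of -0.14 to 0.14. The 33 members that were not called had log2 fold changes between -0.27 and 0.20.

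**Figure D2:**
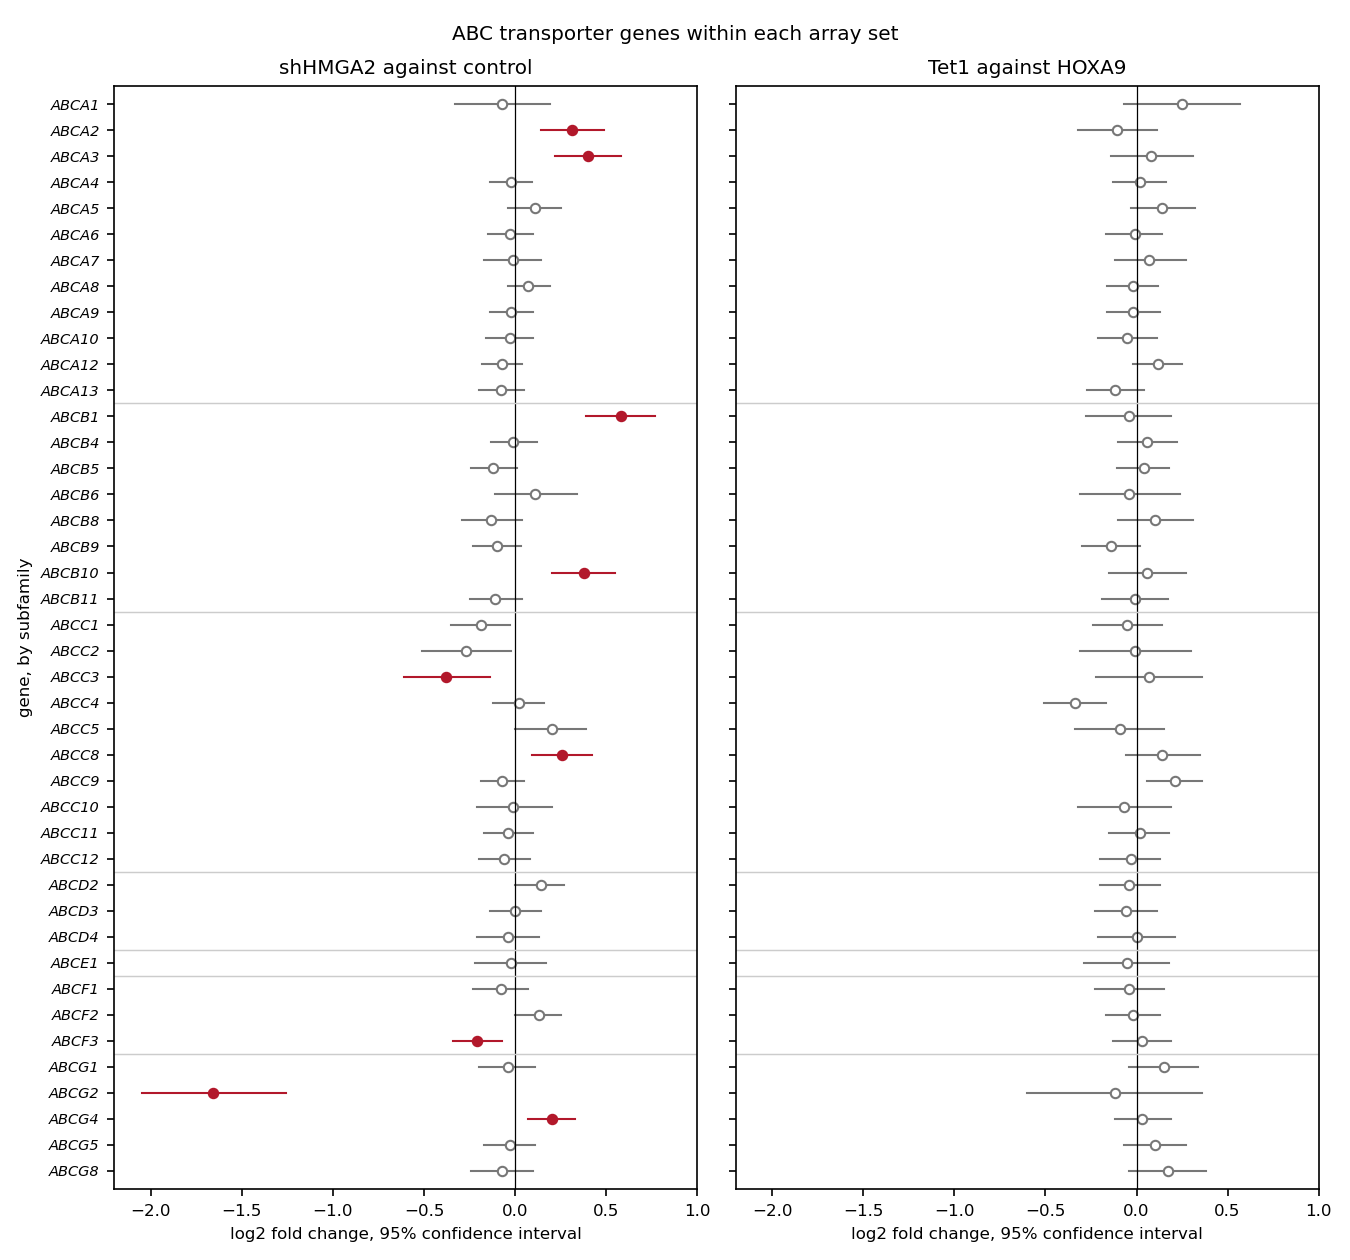
Log2 fold change (points) with 95% confidence intervals (lines) of the 42 ABC transporter genes, by subfamily, for shHMGA2 against control (left) and Tet1 against HOXA9 (right). Filled red points passed an adjusted p of 0.05, which 9 members did on the left, with ABCG2 at -1.66, and 0 on the right.

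Tet1 and HOXA9 cells were each compared with control to ask what either factor changes. Under every scaling tried, ABCG2, ABCC1, ABCD3, ABCB10 and the ribosome-associated members ABCE1, ABCF1 and ABCF2 fell in both lines, and ABCA9, ABCA13, ABCG4 and ABCG8 rose. ABCA9 was dim in every group, and its rise was 0.18 in Tet1 and 0.21 in HOXA9 cells with equal array medians. Both comparisons use the same 3 control arrays and cross the array sets, so their values are given side by side. In Tet1 cells 32 members were called, 23 higher and 9 lower, against a background of 77.1% of all genes (53.9% higher and 23.2% lower). The median log2 fold change was 0.26 over the members and 0.25 over all genes. In HOXA9 cells 31 members were called, 22 higher and 9 lower, against 75.7% of all genes (54.0% higher and 21.6% lower), with medians of 0.22 and 0.24. At 1.5-fold or more, 9 members were called in Tet1 cells and 11 in HOXA9 cells, against backgrounds of 35.3% and 32.2%. The shares called at any size are near those of the array as a whole. Arrays did not overlap control for 34 members in Tet1 cells and 32 in HOXA9 cells. This was so for 85.7% and 82.8% of all genes, so the lack of overlap given below is common.

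The directions depended on how the 2 array sets were scaled. With one quantile normalization over all arrays, Tet1 cells had 9 members higher and 16 lower (32.6% and 33.3% of all genes). With equal array medians they had 6 higher and 21 lower (21.9% and 51.4% of all genes). HOXA9 cells had 8 higher and 17 lower after quantile normalization (29.7% and 34.0% of all genes). With equal medians they had 6 higher and 24 lower (20.3% and 51.1% of all genes). The median gene moved from 0.25 and 0.24 to 0.00 and -0.02 under the first, and to -0.22 and -0.21 under the second, for Tet1 and HOXA9. Of the called members in Tet1 cells 71.9% were higher as deposited, 36.0% after quantile normalization and 22.2% with equal medians (all genes 69.9%, 49.4% and 29.9%). In HOXA9 cells these were 71.0%, 32.0% and 20% (all genes 71.4%, 46.6% and 28.4%). Dim and bright members both lost higher calls. Of the 14 members whose mean over the 10 arrays lay below the 30th percentile, 10 were called higher and 0 lower in Tet1 cells as deposited, against 3 and 1 after quantile normalization. Over all genes below it, 70.0% were higher and 6.6% lower as deposited, against 30.7% and 21.1% after quantile normalization. Of the 28 members above it, 13 were higher and 9 lower as deposited, against 6 and 15. Over all genes above it these shares were 50.2% and 27.0%, against 33.0% and 36.1%, so the whole array lost higher calls.

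**Figure D3:**
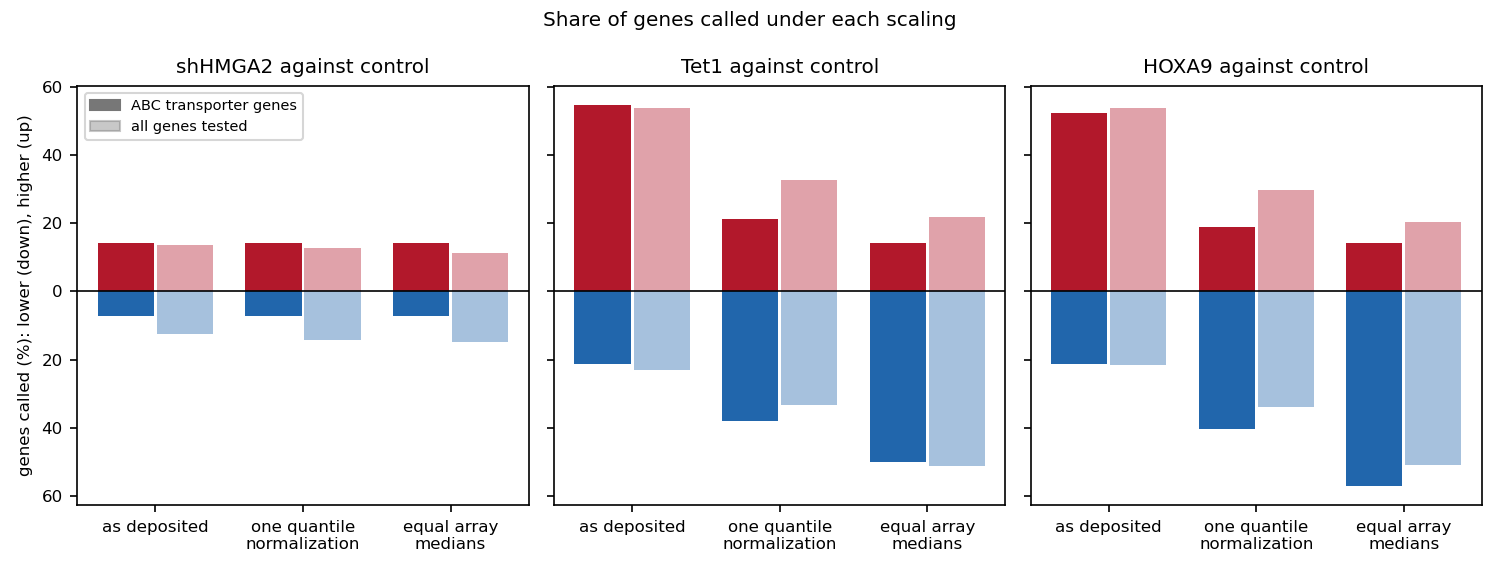
Share of genes called (%, vertical axis, upward for higher and downward for lower) among the 42 ABC transporter genes (dark bars) and all 18417 genes (pale bars), under 3 scalings, for each group against control. For Tet1 cells 23 members were higher and 9 lower as deposited, against 6 and 21 with equal array medians, while shHMGA2 cells kept 6 and 3.

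Calls that held in the same direction under all 3 scalings were fewer. In Tet1 cells they were 6 higher (ABCA1, ABCA9, ABCA13, ABCG1, ABCG4 and ABCG8) and 9 lower (ABCB10, ABCC1, ABCC4, ABCC5, ABCD3, ABCE1, ABCF1, ABCF2 and ABCG2), against backgrounds of 20.1% and 21.5%. In HOXA9 cells they were 4 higher (ABCA9, ABCA13, ABCG4 and ABCG8) and 9 lower (ABCA5, ABCB8, ABCB10, ABCC1, ABCD3, ABCE1, ABCF1, ABCF2 and ABCG2), against 18.0% and 20.5%. Members given below that changed by less than 1.5-fold are named for their roles, after their values were seen. ABCB8 is uncertain, since its other probe sets gave -0.03 and 0.12 in HOXA9 cells where the brightest gave -0.27.

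Among the drug pumps, ABCG2 and ABCC1 fell in both lines. ABCG2 was at 6.30 and 6.29 in Tet1 arrays and 6.40 and 6.42 in HOXA9 arrays, against 9.02, 8.34 and 8.53 in control. All 4 arrays lay below every control array, and both means lay below the 30th percentile of their own array set (6.57), so the folds can understate the fall. The log2 fold change was -2.34 in Tet1 cells (SE 0.2, 5.05-fold lower, adjusted p = 8.1e-07) and -2.22 in HOXA9 cells (SE 0.2, 4.65-fold lower, adjusted p = 1.4e-06). Under the other scalings it was -2.71 and -2.80 in Tet1 cells, and -2.61 and -2.67 in HOXA9 cells.

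ABCC1 was at 9.26 and 9.21 in Tet1 arrays and 9.16 and 9.40 in HOXA9 arrays, against 10.11, 10.05 and 10.17 in control. The groups did not overlap. The log2 fold change was -0.88 in Tet1 cells (SE 0.08, adjusted p = 1.2e-06) and -0.83 in HOXA9 cells (SE 0.08, adjusted p = 2.1e-06). With equal array medians these became -1.35 and -1.29. ABCB1 was at 5.73 and 5.70 in Tet1 arrays and 5.76 in both HOXA9 arrays, against 5.32, 5.44 and 5.37 in control. It was called higher as deposited (0.34 and 0.38), was not called after quantile normalization (0.01 and 0.04), and turned negative with equal array medians (-0.13 and -0.08), so no direction can be given.

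Of the 12 ABCA genes 9 were called higher and 0 lower in Tet1 cells and 8 and 1 in HOXA9 cells, and of the 5 ABCG genes 4 and 1 in each, as deposited. Over all genes 53.9% and 54.0% were called higher, and only ABCA9, ABCA13, ABCG4 and ABCG8 held in both lines under every scaling. ABCA13, a large ABCA protein linked to lipid handling in neurons of mice, was at 7.30 and 7.31 in Tet1 arrays and 7.37 and 7.48 in HOXA9 arrays, against 5.93, 5.94 and 6.02 in control. Every Tet1 and HOXA9 array lay above every control array, and a lack of overlap was seen for 85.7% and 82.8% of all genes. The log2 fold change was 1.34 in Tet1 cells (SE 0.06, 2.53-fold, adjusted p = 1.7e-08) and 1.46 in HOXA9 cells (SE 0.06, 2.75-fold, adjusted p = 1e-08). After quantile normalization it was 0.81 and 0.94. Its control mean of 5.96 lay below the 30th percentile, so the fold can understate the change.

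ABCA1 was at 7.72 and 7.61 in Tet1 arrays and 7.47 and 7.35 in HOXA9 arrays, against 6.47, 6.41 and 6.85 in control. Neither line overlapped control. The log2 fold change was 1.09 in Tet1 cells (SE 0.13, adjusted p = 1.3e-05) and 0.83 in HOXA9 cells (SE 0.13, adjusted p = 0.00012). After quantile normalization it was 0.58 in Tet1 cells, still called, and 0.30 in HOXA9 cells, where the call was lost (adjusted p = 0.059).

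ABCG1, which moves cholesterol to high-density lipoprotein, was at 6.94 and 6.89 in Tet1 arrays and 6.75 and 6.78 in HOXA9 arrays, against 6.13, 5.97 and 6.08 in control. It rose by 0.86 and 0.71 on the log2 scale (adjusted p = 1.3e-06 and 6.6e-06), and after quantile normalization the HOXA9 value of 0.16 was no longer called (adjusted p = 0.098). ABCG4 was at 7.79 and 7.67 in Tet1 arrays and 7.71 and 7.68 in HOXA9 arrays, against 7.0, 6.91 and 6.93 in control. It rose by 0.79 and 0.75 (adjusted p = 5.7e-07 and 9.2e-07), and by 0.30 and 0.28 after quantile normalization. These genes kept a positive sign under each scaling tried, at smaller sizes.

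ABCG8, which pairs with ABCG5 as the sterol exporter of gut and liver, was at 7.14 and 6.85 in Tet1 arrays and 6.90 and 6.75 in HOXA9 arrays, against 5.97, 6.10 and 5.95 in control. It rose by 0.99 and 0.82 (adjusted p = 1.1e-06 and 5.4e-06), and by 0.43 and 0.26 after quantile normalization. Its partner ABCG5, whose gene overlaps ABCG8 on chromosome 2, was at 5.70 to 5.94 in the Tet1 and HOXA9 arrays, against 5.43 to 5.48 in control. ABCG5 was called as deposited (0.45 and 0.35), but stood at 0.08 and -0.01 after quantile normalization, with no call. ABCA2 was at 7.85 and 7.97 in Tet1 arrays and 7.99 and 8.05 in HOXA9 arrays, against 7.39, 7.21 and 7.44 in control. It was called higher as deposited (0.57 and 0.67). After quantile normalization ABCA2 was called in HOXA9 cells (0.27, adjusted p = 0.02) and not in Tet1 cells (0.14, adjusted p = 0.17).

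A run of 5 ABCA genes lies side by side on chromosome 17, in the order ABCA8, ABCA9, ABCA6, ABCA10 and ABCA5. They differed among themselves in the inducible lines. ABCA9 was called higher under every scaling (0.64 and 0.66 as deposited), while ABCA6 and ABCA10 were within 0.06 of control as deposited and not called. ABCA5, the only bright gene of the run, was at 7.39 and 7.37 in Tet1 arrays and 7.17 and 7.31 in HOXA9 arrays, against 7.47, 7.47 and 7.59 in control. Its log2 fold change was -0.13 in Tet1 cells (adjusted p = 0.13) and -0.27 in HOXA9 cells (adjusted p = 0.0056). Under the other scalings it was called lower in both, at -0.62 and -0.59 in Tet1 cells and -0.76 and -0.72 in HOXA9 cells.

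Members that work in organelles or on ribosomes went in both directions. ABCD3 was at 9.75 and 9.76 in Tet1 arrays and 9.83 and 9.79 in HOXA9 arrays, against 10.48, 10.62 and 10.59 in control. Neither line overlapped control. It fell with a log2 fold change of -0.81 in Tet1 cells (SE 0.07, adjusted p = 9.2e-07) and -0.75 in HOXA9 cells (SE 0.07, adjusted p = 1.9e-06). ABCE1, which splits ribosomes after termination, fell (log2 fold change -0.55 and -0.50), as did ABCF2 (-0.43 and -0.41). ABCF1, a partner of an initiation factor, fell as well (-0.38 and -0.33). Its 3 probe sets held identical values. ABCF3 was called higher as deposited (0.43 and 0.40) and after quantile normalization (0.47 and 0.40), but not with equal medians (-0.04 and -0.06). ABCB10 fell (-0.36 and -0.42). ABCD2, a peroxisomal transporter of very long chain fatty acids, was called higher as deposited (0.58 and 0.62) and after quantile normalization (0.22 and 0.24), but not with equal medians (0.11 and 0.16). ABCB6 (0.31 and 0.35) and ABCB9 (0.34 and 0.49), a lysosomal peptide transporter, were called higher only as deposited. ABCD4, a lysosomal protein needed for cobalamin export, was not called as deposited (0.07 in each) and was called lower with equal medians (-0.39 and -0.38). Beside these results, the kidney cell list summed to 1324 to 1365 in Tet1 and 1227 to 1348 in HOXA9 arrays, against 996 to 1083 in control. The MDA-MB-231 list summed to 56596 to 57608 and 56324 to 59296, against 49630 to 49935, and the luminal list to 11299 to 12108 and 12289 to 12381, against 8928 to 9415. These sums cross the array sets and move with the scaling. After quantile normalization the kidney list had 3 genes higher and 3 lower in Tet1 cells and 2 and 3 in HOXA9 cells, and the MDA-MB-231 list 2 and 3 in each. Their part in the results was not tested.

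**Figure D4:**
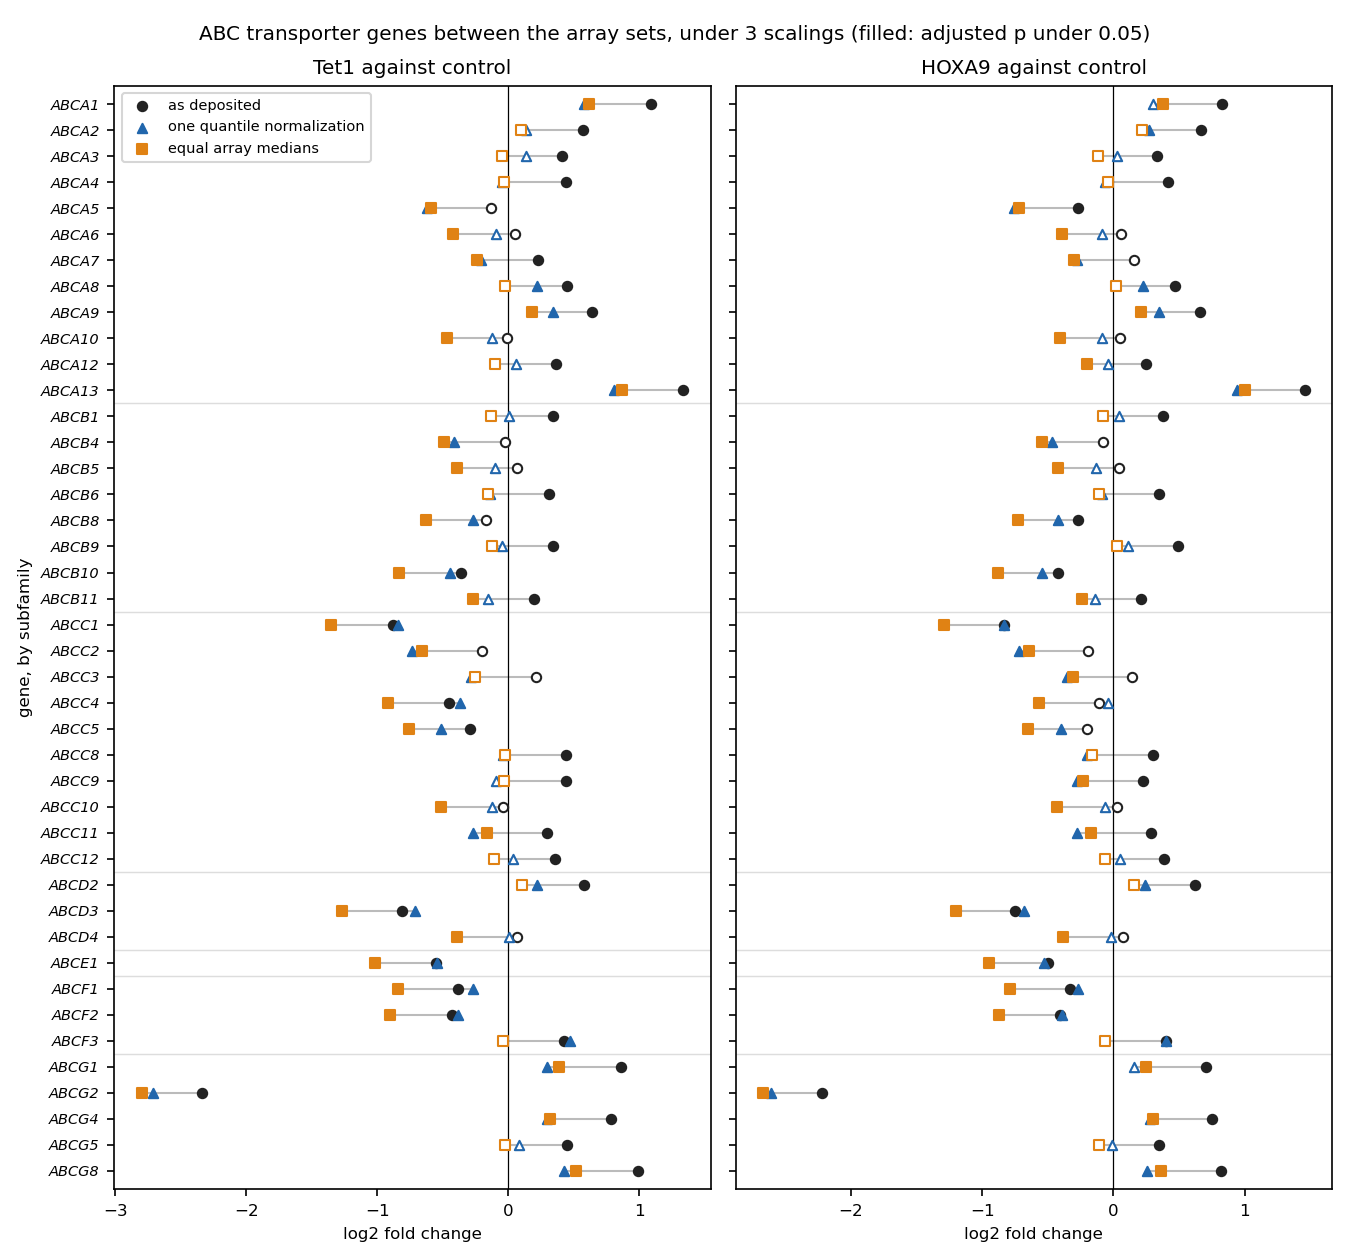
Log2 fold change (horizontal axis) of the 42 ABC transporter genes, by subfamily, in Tet1 (left) and HOXA9 cells (right) against control, as deposited (circles), after one quantile normalization (triangles) and with equal array medians (squares). Filled symbols passed an adjusted p of 0.05, and a call in the same direction under all 3 scalings was kept by 15 members on the left and 13 on the right.

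Tet1 and HOXA9 cells share an array set and could be compared directly. Of the 42 members 0 were called by limma, against 0.434% of all genes, and the median log2 difference was -0.01 over the members and 0.01 over all genes. At an unadjusted p under 0.05 there were 2, against 9.16% of all genes. They are named here after their values were seen. ABCC4, an exporter of cyclic nucleotides and prostaglandins, was at 9.62 and 9.61 in Tet1 arrays, against 9.92 and 10.00 in HOXA9 arrays (log2 fold change -0.34, 95% confidence interval -0.51 to -0.17, adjusted p = 0.13). ABCC9, a potassium channel receptor, was at 6.50 and 6.40 in Tet1 arrays, against 6.20 and 6.28 in HOXA9 arrays (0.21, interval 0.06 to 0.36, adjusted p = 0.29). The groups did not overlap for either gene, which was so for 41.3% of all genes. The other members were bounded rather than shown to be equal: the 42 intervals ran from -0.60 to 0.57, and 41 lay within 1.5-fold either way. The exception was ABCG2, with -0.12 (interval -0.60 to 0.36). That width reflects the pooled spread: its SD was 0.35 in control and 0.38 in shHMGA2, groups outside this comparison. In Tet1 and in HOXA9 arrays its SD was 0.01, at dim levels.

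Genes that act beside the transporters were read from lists chosen with earlier results in view, in the order shHMGA2, Tet1 and HOXA9 cells, each against control and as deposited. Over all genes 13.6%, 53.9% and 54.0% were called higher and 12.6%, 23.2% and 21.6% lower, with medians of -0.03, 0.25 and 0.24. Of 13 cholesterol efflux and LXR genes 3, 6 and 6 were called higher and 4, 3 and 3 lower, with median log2 fold changes of -0.17, -0.04 and -0.09. After quantile normalization 5 were higher and 5 lower in Tet1 cells, and 5 and 6 in HOXA9 cells. PLTP, a phospholipid transfer protein, rose in each (0.42, 1.42 and 1.57), as did APOC1, an apolipoprotein (0.45, 0.87 and 0.88). LPCAT3, a phospholipid-remodelling enzyme, fell in Tet1 and HOXA9 cells (-1.47 and -1.31), as did SCARB1, the high-density lipoprotein receptor (-0.65 and -0.62). In shHMGA2 cells CYP27A1, a sterol hydroxylase, fell (-0.37), as did RXRA, the partner receptor of LXR (-0.25). These genes did not all follow ABCA1 and ABCG1.

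Of 12 genes of peroxisomes and beta-oxidation 1, 5 and 6 were higher and 4, 4 and 3 lower (medians -0.05, 0.03 and 0.10). After quantile normalization 5 were higher and 5 lower in either line. Catalase (CAT) rose by 1.17 in Tet1 and 1.30 in HOXA9 cells, where ABCD3 fell. ACSL1, which activates fatty acids, fell there (-1.56 and -1.47), as did PPARA, a regulator of these genes (-1.45 in each). PPARA also fell in shHMGA2 cells (-0.57), as did ACSL4 (-0.35), while PEX19, a peroxisome import factor, rose by 0.33. Genes of this list thus went in both directions.

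Of 16 mitochondrial iron-sulfur and haem genes 4, 6 and 6 were higher and 1, 8 and 7 lower (medians -0.02, -0.11 and -0.04). After quantile normalization 4 were higher and 8 lower in Tet1 cells, and 2 and 8 in HOXA9 cells. ALAS1, which starts haem synthesis, fell in Tet1 and HOXA9 cells (-0.82 and -0.63), where ABCB10 was also lower, while the scaffold gene ISCU rose by 0.55 and 0.57. In shHMGA2 cells GLRX5 rose by 0.28 and FECH, ferrochelatase, by 0.27, while the iron carrier SLC25A37 fell (-0.20). Of 15 ribosome recycling and stress genes 4, 5 and 5 were higher and 1, 8 and 8 lower (medians -0.03, -0.28 and -0.21). After quantile normalization 6 were higher and 8 lower in Tet1 cells, and 5 and 9 in HOXA9 cells. EIF3J, which works with ABCE1 in ribosome recycling, fell in Tet1 and HOXA9 cells (-1.26 and -1.29), as did the release factor ETF1 (-0.81 in each). PELO, a ribosome rescue factor, was higher there by 1.07 and 1.03, though its means of 5.93 and 5.89, against 4.86 in control, are dim. In shHMGA2 cells HBS1L, the partner of PELO, rose by 0.49.

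Of 23 glutathione and xenobiotic genes 2, 10 and 10 were higher and 8, 8 and 8 lower (medians -0.18, 0.01 and 0.02). After quantile normalization 7 were higher and 8 lower in Tet1 cells, and 8 and 7 in HOXA9 cells. CYP1B1, a target of the aryl hydrocarbon receptor, was at 6.34 and 6.27 in Tet1 arrays and 6.26 and 6.21 in HOXA9 arrays, against 10.22, 8.72 and 9.09 in control. It fell (-3.04 and -3.11, adjusted p = 0.00014 and 0.00013), and the control arrays were far apart. NQO1, a quinone reductase, fell in shHMGA2 (-0.62), Tet1 (-2.59) and HOXA9 cells (-2.79), the groups in which ABCG2 was also lower. In shHMGA2 cells the NQO1 call was weaker (adjusted p = 0.039). Its arrays there, at 12.15, 11.37 and 11.21, overlapped the 12.48, 12.16 and 11.96 of control. The aryl hydrocarbon receptor gene AHR fell in shHMGA2 cells (-0.58), where GSTA4 and GSTP1, glutathione transferases, rose by 0.66 and 0.45. CYP1B1 was not called in shHMGA2 cells (-0.60, adjusted p = 0.38). In Tet1 and HOXA9 cells AHR was called higher as deposited (0.45 and 0.43). The glutathione transferase genes GSTM1 (1.00 and 1.15) and MGST3 (0.97 and 0.93) were also called higher in these lines. So was NR1I3, a receptor gene of this list (1.13 and 1.04), though its control mean of 5.36 is dim. CYP3A5 was the single gene of these lists called between Tet1 and HOXA9 cells (-0.39, adjusted p = 0.036), a difference not called after quantile normalization.

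The 3 ABC genes outside the naming rule were TAP1 and TAP2, which load antigen peptides, and the chloride channel CFTR. TAP1 was at 9.33, 9.09 and 8.89 in shHMGA2 arrays, against 9.71, 9.61 and 9.79 in control, without overlap. It fell (-0.59, adjusted p = 0.00079), as did TAP2 (-0.40). In Tet1 and HOXA9 cells TAP2 fell (-0.91 and -0.81), while TAP1 stood at -0.18 and -0.05 and was not called. CFTR was called higher as deposited in both (0.23 and 0.15), but not after quantile normalization.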

How the data were processed

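The authors deposited log2 expression values of Affymetrix probe sets, and the submitters' processing notes name R 2.11 and RMA, which corrects background, quantile-normalizes and summarises probes. The sources used here do not say if that was done jointly for all arrays. Of 12 columns, replicate 3 of Tet1 and of HOXA9 was the average of the other columns of its group (within 1e-06 in all 33297 probe sets) and was left out, which leaves 10 arrays. Gene symbols came from the platform annotation (19460 probe sets with 1 symbol, 1754 with several, 12083 not listed). The brightest probe set per gene was used.

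All 18417 genes entered 1 limma fit of the 4 groups (limma 3.58.1, R 4.3.3, lmFit with eBayes, spread pooled over groups, 6 residual degrees of freedom, two-sided, Benjamini-Hochberg over all genes), after the script was tested on simulated data. Called means an adjusted p under 0.05. Named members were called, changed at least 1.5-fold and were brighter than the 30th percentile in at least 1 of the groups compared, plus ABCB1, ABCC1, ABCG2 and ABCA1; of each companion list, up to 2 called genes per direction. The members and lists were chosen with earlier results of these data known. Alternatives were 2 scalings, a filter on dim genes, all 12 columns, fits of only the groups compared, a trended prior, a replicate block, the mean over probe sets, and leaving out each array. The number of arrays limits the precision.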

Additional observations from a re-analysis of the deposited data

How the results depend on the processing

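Leaving out each array in turn gave 5 to 7 called members for shHMGA2, against 9 with all arrays, and both counts of 5 (without control replicate 2, without shHMGA2 replicate 3) held 3 higher and 2 lower. The same gave 28 to 31 for Tet1, 27 to 33 for HOXA9 and 0 to 0 between Tet1 and HOXA9. With all 12 deposited columns, which count the averages as arrays, 2 members were called between Tet1 and HOXA9. ABCB1 changed sign with equal array medians, to -0.13 in Tet1 and -0.08 in HOXA9 cells; the cause was not tested. For the 10 named members, results that were called kept call and direction 118 times with an array left out and lost the call 6 times, always ABCA2 or ABCG4 in shHMGA2. Under the other settings called results kept both 180 times, lost the call 7 times and reversed 2 times. Results that were not called stayed so 76 times with an array left out, 11 of them with another sign, and 126 times under the other settings, where ABCC1 in shHMGA2 was called with all 12 columns. Deviations of same-numbered control and shHMGA2 arrays correlated at 0.122, 0.13 and 0.009, against -0.146 to 0.031 for different numbers. Correlations this small cannot settle whether the numbers pair samples, and the labels do not say. With a replicate block 9, 31, 31 and 0 members were called for shHMGA2, Tet1, HOXA9 and Tet1 against HOXA9. Fitting only the shHMGA2 and control arrays left 7 called members, 6 higher and 1 lower, against 6 and 3 with the pooled spread. Over all genes 4272 were then called, against 4830. Between the array sets directions of modest changes rest on the scaling, and 13 members are too dim in every group to be known to lie above background.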
